A study of Mus musculus with 2 samples.

Results

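The pericentral Wnt targets described here are 10 genes, Glul, Axin2, Lgr5, Rhbg, Slc1a2, Oat, Tbx3, Rnf43, Znrf3 and Nkd1, taken from the 32285 genes of the tables by their symbols. All 10 symbols matched 1 row each in both liver sections. The genes were measured by spatial transcriptomics (ST) on 10x Visium slides, where a tissue section lies on a capture area of printed spots. A unique molecular identifier (UMI) lets each captured RNA be counted a single time. A spot is a small region that can hold several cells. The assay counts molecules by their 3' ends, so levels are given as UMIs per 1000000 UMIs (CPM) without scaling by gene length, and each gene is compared with itself.

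The data come from 1 liver section of a mouse on normal chow (NCD group) and 1 of a mouse on a high-fat diet (HFD group), which is used to model nonalcoholic fatty liver disease. Both were male C57BL/6J mice, bought at the age of 5 weeks, that had 14 weeks of their diet and then 8 weeks of daily gavage with distilled water. The livers were perfused, frozen and cut at 10 µm. The labels also carry the terms "hematopoietic stem cell" and "Immune cell", but the sections were rich in hepatocyte transcripts. Alb, which encodes serum albumin, was at 56011 CPM in the NCD section and 57872 CPM in the HFD section, while the leukocyte gene Ptprc was at 6.61 and 10.7 CPM. The stem cell markers Cd34, Kit, Flt3 and Procr came to 5.85 and 8.97 CPM together, and none of them was at 0. With 1 section per diet no test between diets was possible, and diet, animal, section and capture area cannot be told apart. All intervals are exact 95% intervals unless named otherwise, and they cover counting error only. In a spot, fewer cells of a type and less RNA per cell cannot be told apart.

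In the liver lobule, blood flows from the portal tract to the central vein, and hepatocytes differ in their tasks along this path. Endothelial cells of the central vein release Wnt ligands and the amplifier R-spondin 3, which stabilise β-catenin in the nearest hepatocytes, where it acts on genes together with TCF/LEF factors. The best known result is a thin sleeve of hepatocytes around the vein that makes glutamine synthetase and takes up the ammonia that upstream hepatocytes have left in the blood. Some targets carry out this nitrogen metabolism, and others feed back on the Wnt signal itself.

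The promoters of 3 members are shown because these genes had the most UMIs of the set and carry the spatial pattern described below. The sequences are from RefSeq on GRCm38.p6 and give the 250 bases before the start of the transcript, 5′ to 3′ in the direction of the gene. Capitals mark the TCF/LEF letters ATCAAAG or the looser form TCAAAG, which is contained in the longer form, on either strand. Glul lies at chr1:153899679-153899928 on the plus strand, Oat at chr7:132576399-132576648 on the minus strand, and Slc1a2 at chr2:102706188-102706437 on the plus strand. The Slc1a2 start of this table lies 47779 bases inside the gene as GENCODE M21 gives it.
Glul: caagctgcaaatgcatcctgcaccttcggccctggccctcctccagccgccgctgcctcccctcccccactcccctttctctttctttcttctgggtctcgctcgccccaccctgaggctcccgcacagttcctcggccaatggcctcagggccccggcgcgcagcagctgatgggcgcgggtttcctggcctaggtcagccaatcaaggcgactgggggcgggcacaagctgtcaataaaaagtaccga
Oat: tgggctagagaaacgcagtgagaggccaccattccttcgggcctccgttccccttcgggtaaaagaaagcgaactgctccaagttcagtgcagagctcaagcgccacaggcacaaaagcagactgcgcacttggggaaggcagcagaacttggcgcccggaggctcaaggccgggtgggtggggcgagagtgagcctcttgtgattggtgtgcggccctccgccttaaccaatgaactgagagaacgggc
Slc1a2: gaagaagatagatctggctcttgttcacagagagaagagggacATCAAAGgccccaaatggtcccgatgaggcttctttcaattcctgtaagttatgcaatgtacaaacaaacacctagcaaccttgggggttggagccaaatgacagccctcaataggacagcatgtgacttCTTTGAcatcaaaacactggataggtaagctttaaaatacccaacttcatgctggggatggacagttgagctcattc
The table held 7 promoters for 6 members, namely Glul, Axin2, Slc1a2, Oat, Nkd1 and Rnf43 with a pair of starts. Slc1a2 was the single promoter of these 7 with a match. It held ATCAAAG on the plus strand from 207 bases before the start and TCAAAG on the minus strand, written as CTTTGA, from 77 bases before the start. Of 32851 promoters of the same length, 3.21% held ATCAAAG and 13.8% held TCAAAG. A match is a description of letters and not a binding site. Lgr5, Rhbg, Tbx3 and Znrf3 had no entry in the table.

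The sections differed in depth. In NCD, 3692 spots lay over tissue and held 29037988 UMIs (median 4187.5 per spot), and in HFD 3594 spots held 72118803 UMIs (median 18549). Spots off tissue held 19.1% of all UMIs on the NCD capture area and 2.93% on the HFD capture area. The filtered tables share 3173 spot barcodes, since capture areas carry the same printed barcodes. Shares of spots were therefore also computed after every spot was drawn down to 3000 UMIs, which left 2107 NCD spots and 3538 HFD spots.

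The enzymes and transporters of nitrogen metabolism were lower in the HFD section. Glul, which encodes glutamine synthetase (chr1:153899944-153909723, plus strand, GRCm38), was at 661 CPM (651 to 670) in the NCD section and 422 CPM (418 to 427) in the HFD section. The log2 ratio of HFD to NCD was −0.65 (−0.67 to −0.62), which is 1.56-fold lower. Oat, which encodes the mitochondrial ornithine aminotransferase (chr7:132557478-132576398, minus strand), was at 2039 CPM (2022 to 2055) and 868 CPM (861 to 874), 2.35-fold lower in HFD. For both genes the intervals of the sections lay far apart.

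The transporters showed the same order. Slc1a2, a glutamate transporter (chr2:102658659-102790784, plus strand), was at 139 CPM (135 to 144) in NCD and 73.4 CPM (71.4 to 75.4) in HFD, 1.90-fold lower. Rhbg, an ammonium transporter of the Rhesus family (chr3:88242874-88254709, minus strand), was at 22.6 CPM (20.9 to 24.4) and 14.6 CPM (13.7 to 15.5), 1.55-fold lower. None of these intervals overlapped between the sections, and no share over all genes is given for such overlap.

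Among the regulators that feed back on the pathway, Axin2 stood lowest in HFD relative to NCD and Nkd1 did not differ beyond counting error. Axin2, a scaffold of the complex that destroys β-catenin (chr11:108920349-108950783, plus strand), was at 4.86 CPM (4.09 to 5.73) in NCD and 1.86 CPM (1.56 to 2.20) in HFD, a log2 ratio of −1.39 (−1.74 to −1.03). Rnf43 (chr11:87662722-87735539, plus strand) and Znrf3 (chr11:5276324-5444847, minus strand) encode membrane ubiquitin ligases that remove Frizzled receptors from the cell surface. Rnf43 was at 8.54 CPM (7.51 to 9.67) and 5.77 CPM (5.23 to 6.35), with a log2 ratio of −0.57 (−0.80 to −0.33). Znrf3 was at 6.82 CPM (5.90 to 7.84) and 4.20 CPM (3.74 to 4.70), with a log2 ratio of −0.70 (−0.96 to −0.43). Both ligases were lower in the HFD section. Nkd1, an inhibitor that binds Dishevelled (chr8:88521354-88594884, plus strand), was at 5.34 CPM (4.53 to 6.25) and 5.17 CPM (4.66 to 5.72), and the interval of its log2 ratio ran from −0.32 to 0.23.

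Lgr5, a receptor for R-spondins (chr10:115450311-115587780, minus strand), was the member with the fewest UMIs in the NCD section, 87 against 154 in the HFD section. Its level was 3.0 CPM (2.40 to 3.70) in NCD and 2.14 CPM (1.81 to 2.50) in HFD, intervals that overlapped, with a log2 ratio of −0.49 (−0.88 to −0.09). Tbx3, a T-box transcription factor (chr5:119670669-119684724, plus strand), was at 14.2 CPM (12.9 to 15.6) and 5.93 CPM (5.39 to 6.52), 2.39-fold lower in HFD with no overlap.

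In all, 7 of the 10 members were at least 1.5-fold lower in HFD, against a background of 5.01% of the 11913 genes that had 100 or more UMIs in both sections together. No member was at least 1.5-fold higher, against 25.5% of these genes. The median log2 ratio was −0.67 over the members and 0.24 over all these genes. Pooled levels give deeper spots more weight, and the size of the ratios moved with the weighting of spots. Depth ran in opposite directions along the lobule in the 2 sections, as given below with the zones. When every spot counted equally, as a mean of single-spot CPM, Glul stood at −0.24, Rhbg at −0.18 and Nkd1 at 0.52, and 5 members were at least 1.5-fold lower. The background of 5.01% holds for pooled levels, and no share over all genes is given for this weighting. Glul was also present in the spots off tissue, at 519 CPM on the NCD capture area and 480 CPM on the HFD capture area. With the UMIs off tissue subtracted, Glul stood at −1.19, Nkd1 at −0.71 and Znrf3 at −0.17, and Lgr5 and Rnf43 changed sign to 0.59 and 0.25. Markers of other cells also differed between the sections. From NCD to HFD the summed markers were at 49.9 and 200 CPM for bile duct (5 genes), 25.9 and 68.7 CPM for smooth muscle (4 genes), 219 and 445 CPM for hepatic stellate cells (6 genes) and 6676 and 1246 CPM for red blood cells (4 genes), with none of these markers at 0, and their part in the members' ratios was not tested. Spp1 alone made up 43.5 and 187 CPM of the bile duct sums.

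**Figure D1:**
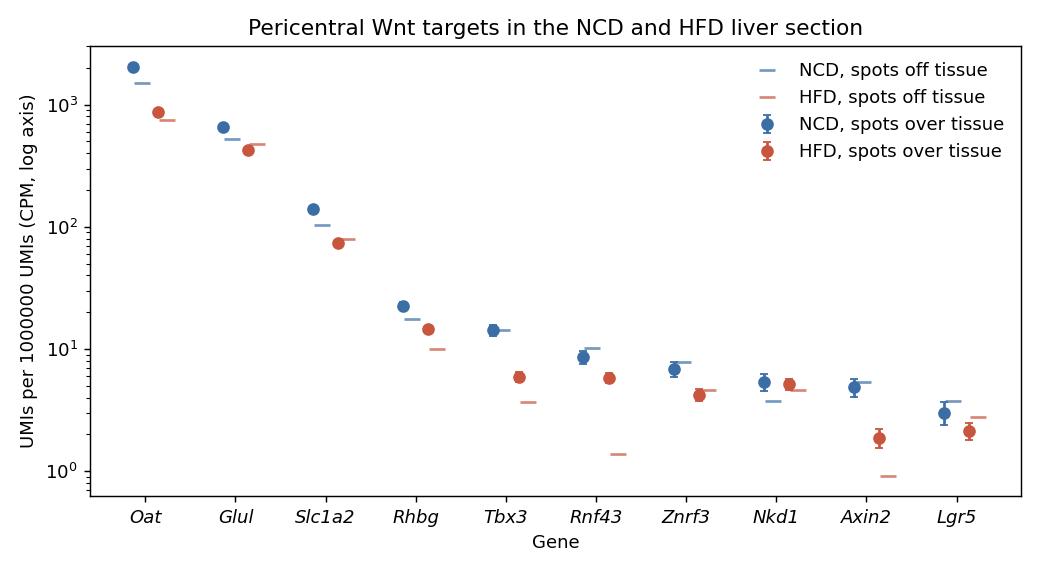
CPM of the 10 members (log axis) in the NCD and HFD sections, ordered by the NCD level. Points are pooled levels over the spots over tissue with exact 95% Poisson intervals, and dashes are the levels in spots off tissue. Every point of the HFD section lies below the NCD point of the same gene, with overlapping intervals for Lgr5 and Nkd1. No share over all genes is given for lower points or for intervals without overlap.

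Glul was unevenly spread over the spots of both sections. A spot was called Glul-high when it had at least 1000 UMIs, at least 3 Glul UMIs and a Glul CPM at least 3 times the pooled level of its own section, that is 1982 CPM in NCD and 1267 CPM in HFD. The NCD section had 291 Glul-high spots of 2852 (10.2%, 9.12 to 11.4), and the HFD section had 310 of 3590 (8.64%, 7.74 to 9.60). These intervals overlapped. The 291 spots held 54.4% of the NCD section's Glul UMIs and 11.3% of all its UMIs, and the 310 spots held 47.0% and 8.12% in the HFD section. The Glul-high spots of the NCD section were deeper than the other spots, with a median of 9808 against 6333 UMIs, and those of the HFD section were not, with 17648.5 against 18693. The size and order of these shares depended on the rule. With 1 threshold for both sections, 11.8% of the NCD spots (337) and 6.52% of the HFD spots (234) were Glul-high, and after drawing down to 3000 UMIs the shares were 11.9% (251) and 7.24% (256). At 5 times the section's level they were 4.24% and 4.29%, and with no minimum of UMIs per spot they were 8.21% and 8.63%, with HFD slightly above NCD.

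At 3000 UMIs per spot, 45.0% of the NCD spots and 46.5% of the HFD spots had no Glul UMI. The sections differed more among the richest spots, of which 180 of 2107 NCD spots and 119 of 3538 HFD spots had 8 or more Glul UMIs.

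**Figure D2:**
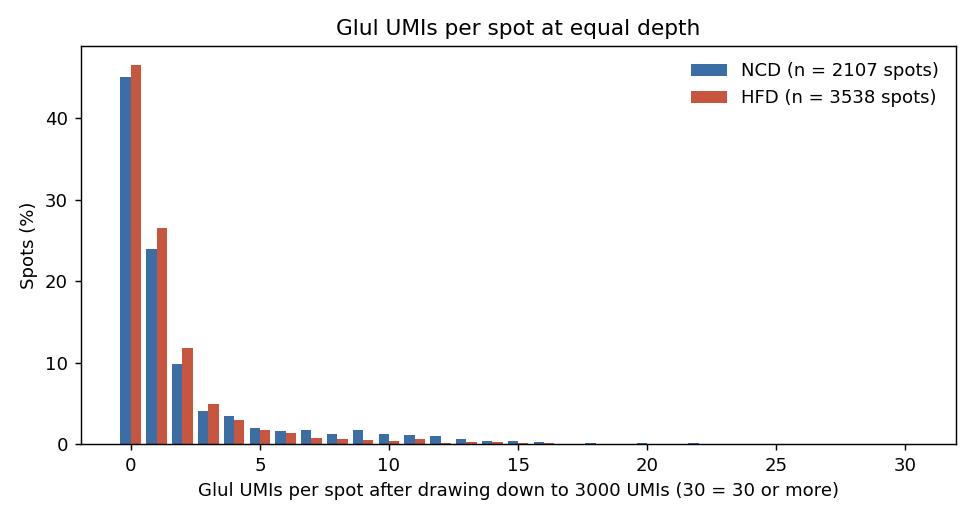
Share of spots (%) by their number of Glul UMIs after every spot was drawn down to 3000 UMIs, for 2107 NCD and 3538 HFD spots. The shares without Glul are 45.0% and 46.5%, and the NCD bars are the higher ones from 4 to 16 UMIs.

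The other 9 members were all higher in Glul-high spots than in the remaining spots of the same section, in both sections. Glul itself chose the spots, so its own level there (3184 CPM in NCD and 2445 CPM in HFD, against 340 and 244 CPM elsewhere) is a description. Slc1a2 was at 594 CPM in Glul-high spots and 81.7 CPM in the others in NCD, with a log2 ratio of 2.86 (2.77 to 2.95). In the HFD section it was at 448 and 40.2 CPM, with a log2 ratio of 3.48 (3.40 to 3.56), the highest of all 11383 genes with at least 100 UMIs. Rhbg ranked 2 in both sections, with 96.8 against 13.1 CPM in NCD (2.89, 2.66 to 3.11) and 79.8 against 8.86 CPM in HFD (3.17, 2.99 to 3.35). Glutamate and ammonium, which these transporters carry, are the substrates of glutamine synthetase. Oat was at 6111 against 1526 CPM in NCD (2.0, 1.98 to 2.03) and 4282 against 566 CPM in HFD (2.92, 2.90 to 2.94).

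The signalling members had fewer UMIs and wider intervals. Lgr5 was at 10.4 against 2.09 CPM in NCD (log2 ratio 2.31, 1.65 to 2.96) and 10.1 against 1.43 CPM in HFD (2.81, 2.32 to 3.30). Nkd1 was at 13.7 against 4.34 CPM in NCD (1.66, 1.13 to 2.18) and 22.5 against 3.64 CPM in HFD (2.63, 2.31 to 2.94). Nkd1 was thus the member whose level in Glul-high spots was higher in HFD than in NCD, with a log2 ratio of 0.71 (0.22 to 1.24), while it was −0.25 (−0.58 to 0.09) in the other spots. The thresholds differ between the sections, so Glul-high spots of NCD and HFD do not cover the same range of Glul. Axin2 was at 12.2 against 3.90 CPM in NCD (1.65, 1.08 to 2.19) and 4.78 against 1.60 CPM in HFD (1.58, 0.92 to 2.19). The difference of these log2 ratios, HFD minus NCD, was −0.07 (−0.87 to 0.74), and the level of Axin2 was lower in HFD in both kinds of spot, by −1.35 (−2.10 to −0.62) and −1.29 (−1.70 to −0.88) on the log2 scale.

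Tbx3 was at 27.5 against 12.5 CPM in NCD (1.14, 0.79 to 1.48) and 21.2 against 4.59 CPM in HFD (2.21, 1.89 to 2.51). Rnf43 had a log2 ratio of 1.38 in both sections (0.94 to 1.81 and 1.01 to 1.74). Znrf3 had the smallest ratio of the set, 0.78 (0.21 to 1.31) in NCD and 0.65 (0.12 to 1.15) in HFD, and 1 NCD spot that was not Glul-high held 8 of its UMIs. After drawing down to 3000 UMIs, the Znrf3 ratio of the HFD section was −0.26.

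Of the members with at least 100 UMIs, 8 of 8 in NCD and 9 of 9 in HFD were at least 1.5-fold higher in Glul-high spots. The background was 6.53% of 8952 genes in NCD and 4.83% of 11383 genes in HFD. The members' median log2 ratio was 1.65 in NCD and 2.63 in HFD, against 0.11 and 0.06 over all genes. Lgr5 with 87 UMIs was not counted in NCD.

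**Figure D3:**
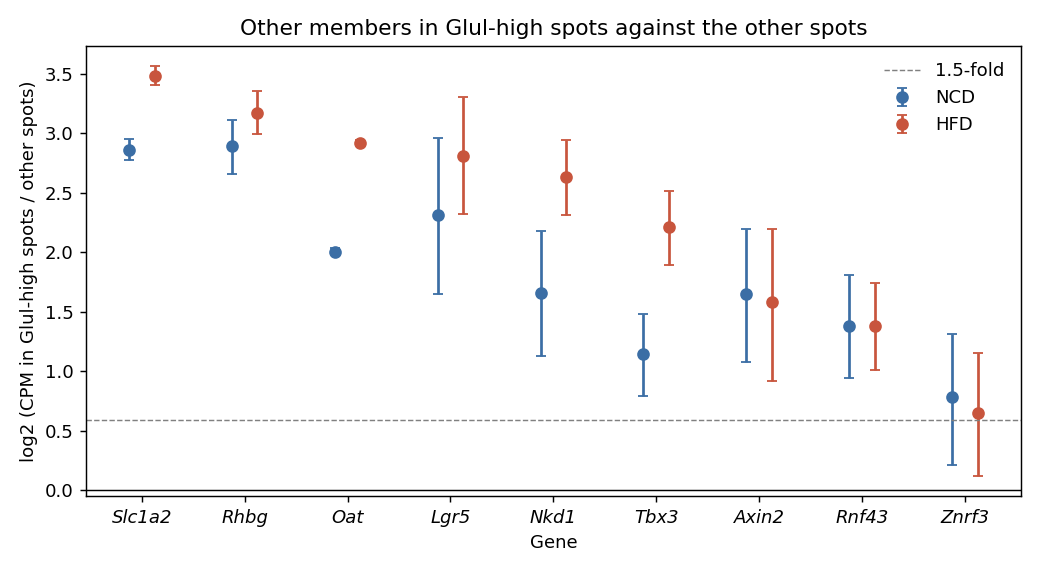
log2 ratio of CPM in Glul-high spots to CPM in the other spots for the 9 other members, with exact 95% intervals, in the NCD and HFD sections. All points lie above 0, from 0.65 for Znrf3 to 3.48 for Slc1a2, both in the HFD section, and Oat, Slc1a2, Tbx3 and Nkd1 are higher in HFD without overlap at full depth. At 3000 UMIs per spot, with Glul-high spots called anew, Slc1a2 (2.97 in NCD, 2.83 in HFD) and Nkd1 (2.15 and 2.10) are not. No share over all genes is given for this comparison of sections.

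The contrast between Glul-high and other spots was compared between the sections for the members alone, so no share over all genes stands beside it. At full depth the difference of the log2 ratios, HFD minus NCD, was 1.07 (0.61 to 1.52) for Tbx3, 0.97 (0.38 to 1.56) for Nkd1, 0.92 (0.88 to 0.95) for Oat and 0.62 (0.50 to 0.74) for Slc1a2, with normal intervals on the log scale. For Rhbg it was 0.28 (0.00 to 0.57), and the intervals of Axin2, Lgr5, Rnf43 and Znrf3 spanned 0. At 3000 UMIs per spot, Glul-high spots were called anew on the drawn-down counts, 251 in NCD and 256 in HFD. The log2 ratios of NCD and HFD were then 1.96 and 2.56 for Oat and 0.86 and 2.29 for Tbx3, still higher in HFD. They were 2.97 and 2.83 for Slc1a2 and 2.15 and 2.10 for Nkd1, no longer higher in HFD. The HFD spots lost more UMIs in this step (median over tissue 18549, against 4187.5 in NCD). The part of this loss and of the new calls in the change was not tested. Drawing down also took Axin2 to 2.30 and 2.83 and Lgr5 to 2.77 and 1.94. For Oat, Slc1a2 and Tbx3 the gap between sections was larger in the spots outside the Glul-high group. Oat was lower in HFD by a log2 ratio of −0.51 (−0.54 to −0.49) in Glul-high spots and −1.43 (−1.45 to −1.41) in the others. The values of Slc1a2 were −0.41 (−0.49 to −0.32) and −1.02 (−1.11 to −0.94), and those of Tbx3 were −0.38 (−0.78 to 0.03) and −1.44 (−1.67 to −1.21). The RNA off tissue on the NCD capture area was rich in these genes, with 1512 CPM of Oat, 104 CPM of Slc1a2 and 14.4 CPM of Tbx3, and its part in the difference was not tested.

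Co-detection with Glul was read at 3000 UMIs per spot. Slc1a2 had a UMI in 37.6% (34.8 to 40.4) of the NCD spots with Glul and in 8.75% of those without, and in 25.3% (23.4 to 27.4) and 9.0% of the HFD spots. The share climbed with the number of Glul UMIs. In NCD it was 8.75% of spots with no Glul UMI, 16.9% with 1, 27.8% with 2 to 3, 66.3% with 4 to 7 and 81.7% with 8 or more. In HFD it was 9.0%, 14.7%, 23.1%, 50.0% and 69.7% in the same order.

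The share with Rhbg was low up to 3 Glul UMIs and higher above, from 2.63% of NCD spots without Glul to 4.12% with 2 to 3 UMIs, 13.0% with 4 to 7 and 23.3% with 8 or more. The HFD shares were 1.46%, 3.72%, 11.9% and 20.2%. Oat was detected in 92.3% of NCD spots with Glul and 83.0% without, and in 81.0% and 61.3% of HFD spots. At this depth Oat, which had the most UMIs of the set, was the member that spots without Glul most often held. A spot without Glul at 3000 UMIs may hold Glul at full depth. There, 32.9% of NCD and 6.35% of HFD spots with at least 1000 UMIs had no Glul UMI.

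The low-level members were seldom seen in the same spot as Glul at this depth. Axin2 had a UMI in 2.42% (1.61 to 3.48) of NCD spots with Glul and 0.738% without, and in 1.16% (0.729 to 1.75) and 0.365% of HFD spots. For Lgr5 the shares were 1.81% and 0.316% in NCD and 1.00% and 0.426% in HFD. Tbx3, Rnf43, Znrf3 and Nkd1 had shares between 1.27% and 4.49% with Glul and between 1.09% and 2.74% without. Among them, Znrf3 of the HFD section had the lower share in spots with Glul, 1.27% against 1.40%, with overlapping intervals. At full depth, at least 1 of the 6 low-level members (Axin2, Lgr5, Tbx3, Rnf43, Znrf3 and Nkd1) was detected in 54.3% (48.4 to 60.1) of Glul-high spots and 25.7% (24.0 to 27.4) of other spots in NCD. In HFD these shares were 65.5% (59.9 to 70.8) and 31.7% (30.1 to 33.3). Drawn down, they were 25.5% and 10.1% in NCD and 18.8% and 6.49% in HFD.

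**Figure D4:**
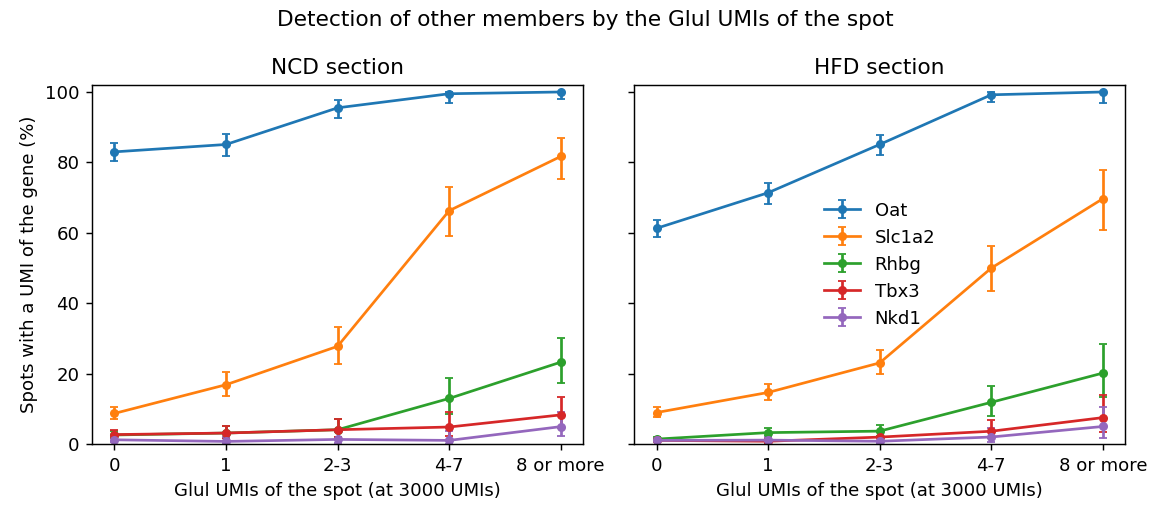
Share of spots (%) with a UMI of Oat, Slc1a2, Rhbg, Tbx3 or Nkd1, by the spot's Glul UMIs after drawing down to 3000 UMIs, with Clopper-Pearson 95% intervals. Slc1a2 climbs from 8.75% to 81.7% in NCD and from 9.0% to 69.7% in HFD, and Rhbg from 2.63% to 23.3% and from 1.46% to 20.2%.

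The same rule, 3 times the gene's own level in its section, was applied to other members in place of Glul to ask how far the rich spots coincide. In NCD, 186 spots were Oat-high, and 148 of them were also Glul-high, which is 79.6% of the Oat-high and 50.9% of the Glul-high spots. In HFD, 336 spots were Oat-high, and the 260 shared ones made up 77.4% and 83.9%. The Glul-high spots of the HFD section thus more often met the rule for Oat, whose cut was lower in HFD. The section's Oat level was 2039 CPM in NCD and 868 CPM in HFD, while Oat in Glul-high spots was at 6111 and 4282 CPM. For Slc1a2 the shared spots were 189 of 235 in NCD (80.4% of the Slc1a2-high and 64.9% of the Glul-high spots) and 240 of 356 in HFD (67.4% and 77.4%). Spots high for all of Glul, Oat and Slc1a2 were 36.1% of the Glul-high spots in NCD (105) and 70.6% in HFD (219). Glul-high spots that were high for neither were 20.3% (59) in NCD and 9.35% (29) in HFD. The cut for Slc1a2 was also lower in HFD, and the NCD spots were shallower. The part of the cuts and of depth in these shares was not tested. Across spots at 3000 UMIs, Spearman's rho of the Glul UMIs with those of Oat was 0.58 in NCD and 0.48 in HFD, and with Slc1a2 0.50 and 0.32. These values are across spots of 1 library each and describe those libraries.

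To place the members along the lobule without using them, spots with at least 1000 UMIs were ordered by the UMIs of 7 pericentral genes (Cyp2e1, Cyp1a2, Gulo, Cyp2c29, Cyp2c37, Cyp2c50 and Cyp2c54) against 7 periportal genes (Cyp2f2, Hal, Sds, Gls2, Hsd17b13, Pck1 and Ass1) and split into 5 zones of equal size, where zone 1 is the most pericentral and zone 5 the most periportal. Zone 1 held 264 of the 291 Glul-high spots of NCD (90.7%) and 281 of the 310 of HFD (90.6%). Spot positions and images were not used here, so the order rests on transcripts alone. The median UMIs per spot were 8242 in zone 1 and 4304 in zone 5 of NCD, but 17993.5 and 27669 in HFD. Levels pooled over a section thus give more weight to pericentral spots in NCD and to periportal spots in HFD. The part of this in the ratios between sections was not tested.

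Glul was at 2046, 498, 256, 193 and 114 CPM from zone 1 to zone 5 in NCD and at 1358, 360, 252, 184 and 106 CPM in HFD. The step from zone 1 to zone 2 was the steepest in both sections. Oat declined more evenly, with 4989, 2390, 1151, 646 and 361 CPM in NCD and 2764, 889, 531, 330 and 171 CPM in HFD. Slc1a2 was at 420, 116, 53.4, 40.3 and 25.2 CPM in NCD and 254, 63.9, 42.0, 25.2 and 11.6 CPM in HFD.

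Relative to zone 5, zone 1 of NCD and HFD was higher by a log2 ratio of 4.16 and 3.67 for Glul, 4.06 and 4.45 for Slc1a2, 4.11 and 3.77 for Rhbg, and 3.79 and 4.01 for Oat. The signalling members had smaller ratios where their counts allow a narrow interval, such as 2.41 (1.75 to 3.14) and 3.17 (2.62 to 3.76) for Tbx3, 2.32 (1.5 to 3.24) and 1.68 (1.24 to 2.12) for Rnf43, and 1.49 (0.66 to 2.41) and 2.09 (1.66 to 2.52) for Nkd1. Axin2 had 1 UMI in zone 5 of NCD, so its ratio there, 5.40, had an interval of 2.86 to 10.72, and it was 3.10 (2.11 to 4.23) in HFD. Lgr5 stood at 4.11 (2.18 to 7.19) and 4.49 (3.31 to 5.97). Znrf3 was the flattest member, with 0.91 (0.16 to 1.70) in NCD and 0.48 (−0.03 to 0.99) in HFD, where its level was highest in zone 2.

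The members other than Glul were not confined to the Glul-high spots. With these spots left out, Oat still had a log2 ratio of 3.40 (3.32 to 3.48) in NCD and 3.26 (3.20 to 3.31) in HFD between zones 1 and 5, and Slc1a2 had 3.24 and 3.23. Tbx3 moved little in NCD, to 2.38 (1.67 to 3.14), and stood at 2.54 (1.92 to 3.19) in HFD. Nkd1 dropped to 0.71 (−0.36 to 1.80) in NCD and 0.92 (0.34 to 1.49) in HFD, a smaller ratio than with the Glul-high spots.

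Between sections, Glul differed in zones 1 and 2 and not beyond counting error in zones 3 to 5. Its log2 ratio of HFD to NCD was −0.59 (−0.62 to −0.56), −0.47 (−0.53 to −0.40), −0.02 (−0.11 to 0.06), −0.07 (−0.18 to 0.04) and −0.10 (−0.24 to 0.04). Oat was lower in HFD in every zone, with −0.85, −1.43, −1.12, −0.97 and −1.08. The genes that order the spots also differed between the sections. Cyp1a2, an enzyme of drug metabolism, stood at −2.95 and Cyp2e1 at −0.69, so a zone of one section need not be the same stretch of lobule as that of the other.

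**Figure D5:**
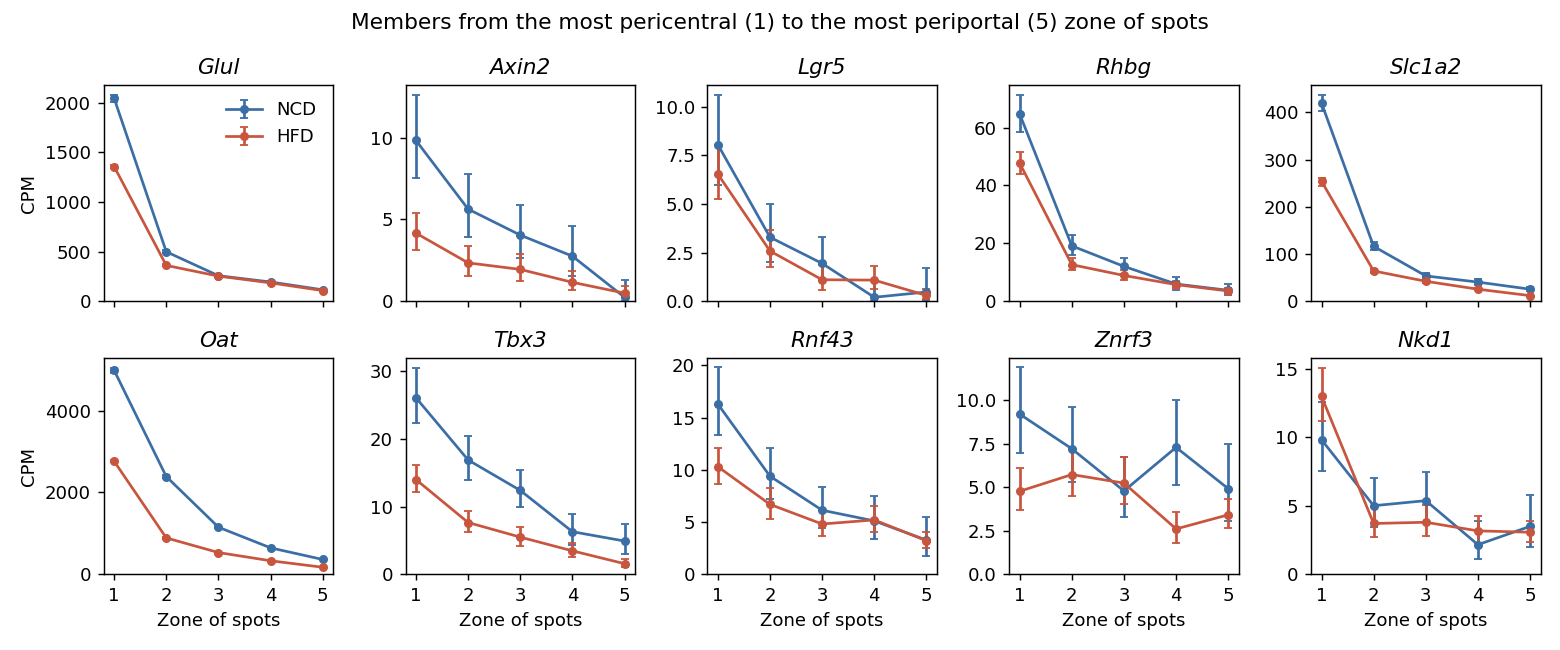
CPM of each member, with exact 95% Poisson intervals, in 5 equal zones of spots from the most pericentral (1) to the most periportal (5), in the NCD and HFD sections. All members but Znrf3 in HFD are highest in zone 1, and the 2 sections meet for Glul from zone 3 on. No share over all genes is given for the zones.

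The rest of the Wnt pathway was followed through a list of 38 further genes. In NCD, 22 had at least 100 UMIs, of which 10 were at least 1.5-fold higher in Glul-high spots (background 6.53% of all genes) and 1 was lower, with a median log2 ratio of 0.41. In HFD, 31 were measured, of which 8 were higher (background 4.83%) and 3 lower, with a median of 0.22. The list includes Cyp2e1 and Cyp1a2, which also served to order the zones. Of the ligand genes, Wnt2 was at 9.77 against 4.02 CPM in NCD (1.28, 0.66 to 1.87) and 16.9 against 5.69 CPM in HFD (1.57, 1.24 to 1.89). Rspo3, which encodes R-spondin 3, had log2 ratios of 2.39 (2.01 to 2.76) and 2.48 (2.19 to 2.76). Wnt9b had few UMIs, of which 22 of 28 in NCD and 19 of 43 in HFD fell in Glul-high spots. Wnt2, Rspo3 and Wnt9b are markers of central vein endothelium, whose 6 markers together were higher in Glul-high spots by 2.03 (1.81 to 2.26) and 1.41 (1.27 to 1.55). General endothelial markers stood at 0.02 and 0.45.

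Further targets and inhibitors were higher in Glul-high spots of both sections. Notum, a secreted enzyme that inactivates Wnt ligands, stood at 1.14 (0.88 to 1.41) and 1.37 (1.16 to 1.58), Lect2 at 1.43 and 1.63, Cyp2e1 at 0.92 and 1.24, and Cyp1a2 at 1.25 and 2.61. Sp5, a transcription factor induced by Wnt, stood at 2.63 (1.99 to 3.26) in NCD with 92 UMIs in the section and 2.99 (2.43 to 3.53) in HFD, and Tnfrsf19 at 1.75 (1.34 to 2.14) in HFD. In NCD, Fzd7 (0.61), Lrp5 (0.63), Dvl3 (0.72) and Kremen1 (0.61) also passed 1.5-fold, with an interval that spanned 0 for Fzd7. The lower genes were Fzd8 in NCD (−0.60, −1.36 to 0.08) and Sfrp1 (−1.34), Ccnd1 (−0.91) and Myc (−0.63, −1.40 to 0.06) in HFD. The receptors, the destruction complex and the TCF/LEF factors with at least 100 UMIs otherwise stayed within 1.5-fold.

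Between the sections, 5 of the 32 measured genes of this list were at least 1.5-fold higher in HFD (background 25.5%) and 4 lower (background 5.01%), with a median log2 ratio of 0.13. The higher ones were Tcf7l1 (0.66), Dkk3 (0.73), Tnfrsf19 (1.33), Myc (0.90) and Ccnd1 (2.63), which encodes cyclin D1. The lower ones were Fzd7 (−0.72), Sp5 (−0.94), Cyp2e1 and Cyp1a2. The amplifier gene Rspo3 stood at −0.44 (−0.66 to −0.21) and the ligand gene Wnt2 at 0.49 (0.22 to 0.78), opposite in direction. The ligand gene Wnt9b, with few UMIs, stood at −0.69 (−1.41 to 0.05).

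Of 6971 other genes with at least 200 UMIs in each section, the 10 most like Glul were ranked by the lower of their log2 ratios in NCD and HFD, Glul-high against other spots. They were Slc13a3 (2.90 and 2.64), Rspo3 (2.39 and 2.48), Vwf (2.21 and 2.21), Cyp2a5 (2.15 and 2.69), Cib2 (2.03 and 2.21), Ces2c (1.86 and 2.06), Rdh9 (1.79 and 1.93), Cyp2c37 (1.69 and 2.39), Lhpp (1.68 and 2.65) and Npr2 (1.64 and 1.85). Vwf, which encodes von Willebrand factor of endothelial cells, and Cyp2a5, a liver cytochrome, were among them. At the other end were Ccl21a (−3.81 and −3.44), Spp1 (−2.25 and −1.77), Mgp (−1.95 and −2.24), Gm32461 (−1.61 and −1.59) and Aldh1b1 (−1.53 and −1.60). The marker lists of other cells gave −2.13 and −1.77 for bile duct, −2.02 and −1.31 for smooth muscle, 0.38 and 0.48 for hepatic stellate cells, −0.56 and −0.01 for macrophages, and −0.31 and −0.19 for hepatocytes, none of whose 5 markers was at 0. Spp1 made up most of the bile duct level.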

How the data were processed

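ST libraries of 1 NCD and 1 HFD liver section were analysed. The deposited files hold raw counts of UMIs, not normalized, which the authors obtained with Space Ranger 1.3.1 for all spots and for spots over tissue. The submitters' processing notes name mm10, and gene positions are from GENCODE M21 on GRCm38. CPM is the pooled UMIs of a gene relative to the total of the same spots. Levels have Poisson, shares Clopper-Pearson and ratios conditional binomial 95% intervals. UMIs were drawn down to 3000 per spot with seed 1, and Glul-high spots were then called anew on the drawn-down counts. A gene counted as higher or lower past 1.5-fold, with at least 100 UMIs. The members and lists were chosen with earlier results of these data known. Named genes are the members, Wnt genes of the list past 1.5-fold or encoding ligands, and the 10 highest and 5 lowest by the rule of likeness. Alternatives changed the weighting, depth, totals, Glul threshold, ordering genes and subtraction of RNA off tissue. The calculations were tested on simulated data. The tools were scipy 1.17.1, numpy 2.4.6, pandas 2.3.3 and, for figures, matplotlib 3.10.9 under Python 3.11.15. Images and spot positions were not used here.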

Additional observations from a re-analysis of the deposited data

Results flagged for a closer look

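The Glul-high rule, with the threshold of each section, also found spots among those called off tissue, which entered the comparison between diets only where their UMIs were subtracted. On the NCD capture area 19 of 1221 spots off tissue with at least 1000 UMIs met it (1.56%, 0.939 to 2.42), and on the HFD capture area 56 of 811 did (6.91%, 5.26 to 8.87). Over tissue the shares were 10.2% and 8.64%. In these spots Oat stood above the other spots off tissue by a log2 ratio of 1.18 (1.01 to 1.35) on the NCD capture area and 1.72 (1.54 to 1.90) on the HFD capture area, and Slc1a2 by 1.73 (1.15 to 2.26) and 1.54 (0.92 to 2.13). The cause was not tested.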

How the results depend on the processing

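Depth limits the low-level members, which had between 87 and 428 UMIs per section. The log2 ratio of Glul, HFD to NCD, was −0.24 as a mean of single-spot CPM, −0.53 after drawing down to 3000 UMIs and −1.19 with UMIs off tissue subtracted, where Lgr5 (0.59) and Rnf43 (0.25) changed sign. The count of members at least 1.5-fold lower was 5 to 7 over the 5 alternatives tried, but not always of the same members. No share over all genes is given for these alternatives. With UMIs off tissue subtracted Nkd1 (−0.71) was counted and Znrf3 (−0.17) was not. After drawing down Lgr5 (−0.69) was counted and Glul was not. As a mean of single-spot CPM Rnf43 (−0.80) was counted, and Glul, Rhbg (−0.18) and Slc1a2 (−0.49) were not. At 5 times the section's level, 121 NCD and 154 HFD spots were Glul-high. Among spots off tissue, 4 members in NCD and 4 in HFD were at least 1.5-fold higher in Glul-high spots, with no minimum of UMIs off tissue. Lgr5 in NCD (1.59, from 1 UMI) was left out of this count because it had 87 UMIs over tissue. No share over all genes is given for spots off tissue. Of the counted members, Nkd1 and Tbx3 in NCD and Lgr5 and Tbx3 in HFD had 1 to 3 UMIs there, and only Oat and Slc1a2 had at least 100 UMIs off tissue. The Znrf3 ratio in HFD was −0.26 after drawing down. The cause was not tested. Of the ratios of single genes under these alternatives, 29 between sections (Glul, given above, not included), 95 in Glul-high spots and 39 along the zones stayed within counting error, while 14, 25 and 18 moved further and 3 whose interval left out 0 changed sign. The spots off tissue, the minimum of 3000 UMIs, leaving out the spot richest in Znrf3 and leaving out Glul-high spots from the zones were chosen after seeing the data. No paired analysis was possible because each diet has 1 section.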
